A study of Mus musculus with 12 samples.

Results

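Activins are dimers of inhibin beta subunits and belong to the TGF-beta family of secreted signals. They bind type II and type I receptor kinases, which phosphorylate SMAD proteins, and follistatins hold them in an inactive complex outside the cell. The 6 genes described here encode the beta subunits Inhba (beta A, the subunit of activin A), Inhbb (beta B), Inhbc (beta C) and Inhbe (beta E), and the activin-binding proteins Fst (follistatin) and Fstl3 (follistatin-like 3). Inhbc and Inhbe are known for their expression in the liver. The 6 genes were taken by name from the 15780 genes with a symbol on the array, each had 1 probe set, and all 6 were among the 9496 genes bright enough to be tested.

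The study asked which mRNAs of mouse primary hepatocytes, the main cells of the liver, come down with an antibody against CNOT6L, a deadenylase of the CCR4-NOT complex that shortens poly(A) tails. The 4 groups were RNA precipitated with the antibody (IP) from wild-type cells, IP RNA from Cnot6l knockout cells, total RNA (input) from knockout cells and input from wild-type cells. Each had 3 Affymetrix arrays. All cells came from male C57BL/6J mice of 8 weeks, and the knockout served as the negative control of the IP. The sources used here do not describe the knockout allele. Each preparation was split into an IP and an input.

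Arrays of the same replicate number deviated together in all groups, so differences are also given within a number. All levels and differences below are on the log2 scale, and the medians of the arrays ran from 6.31 to 6.45. The IP arrays had a narrower spread than the inputs (SD 2.19 to 2.42 against 2.53 to 2.61), and knockout IP replicate 1 had the narrowest and the highest 10th percentile (4.26, against 3.42 to 4.04 on the other 11 arrays). Poly-A control transcripts averaged 9.42 and 9.63 on the replicate 1 IP arrays and 11.17 to 11.73 on the other IP arrays. They averaged 4.77 and 4.75 on the replicate 1 inputs and 7.35 to 7.60 on the other inputs, so replicate 1 was lowest in every group. Cnot6l signal was not lower in the arrays labelled knockout, with 9.54 ± 0.97 in wild-type IP and 9.79 ± 0.73 in knockout IP, and 9.23 ± 0.11 in knockout input and 9.02 ± 0.54 in wild-type input (SD, n = 3 each). The sources used here do not place the probes relative to the deletion, so this checks nothing and directions rest on the labels.

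Inhbe was the member in which the groups stood furthest apart, and it was low on the knockout IP arrays. The family was selected on the specific enrichment of Inhbe (defined below), known from earlier results of these data, so every value of it that involves an IP is a description and carries no test. The Inhbe signal was 6.70, 7.78 and 7.88 in wild-type IP (replicates 1 to 3), against 6.16, 4.94 and 4.88 in knockout IP. It was 7.55, 7.73 and 7.72 in knockout input, against 7.05, 7.90 and 7.47 in wild-type input. The 3 knockout IP values were thus the lowest of the 12, and the other 3 groups overlapped one another.

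Inhbe averaged 7.45 ± 0.65 in wild-type IP and 7.47 ± 0.42 in wild-type input (SD, n = 3 each), a difference of -0.02. The same-number differences lay on either side of 0, at -0.34, -0.11 and 0.41. In the knockout the gene averaged 5.33 ± 0.72 in the IP and 7.67 ± 0.11 in the input (SD, n = 3 each), a difference of -2.34, or 5.07-fold lower in the IP. The same-number differences were -1.39, -2.79 and -2.84, all in 1 direction, as in 48.1% of genes tested, and the groups did not overlap, as in 15.4%. Of these 9496 genes 18, Inhbe included, had a difference between knockout IP and knockout input at least this low (0.19%). The value through which Inhbe was chosen holds this difference, so the rank comes with the choice and is no separate result.

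Between the precipitates Inhbe was 2.13 higher in wild type than in knockout, or 4.38-fold, with same-number values of 0.55, 2.85 and 3.0. The groups did not overlap (6.79% of genes tested). Specific enrichment is the wild-type difference between IP and input minus the same difference in knockout. It was 2.33 for Inhbe, with 1.04, 2.68 and 3.25 within numbers. Replicate 1 gave the smallest size in each of these comparisons, and without its 4 arrays the values were -2.82 for knockout IP minus input, 2.92 between the IPs and 2.97 for specific enrichment. The knockout IP levels of replicates 2 and 3 lay below 5.57, the level that a gene's mean had to reach to be tested, so they stood in the dim range of the array.

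**Figure D1:**
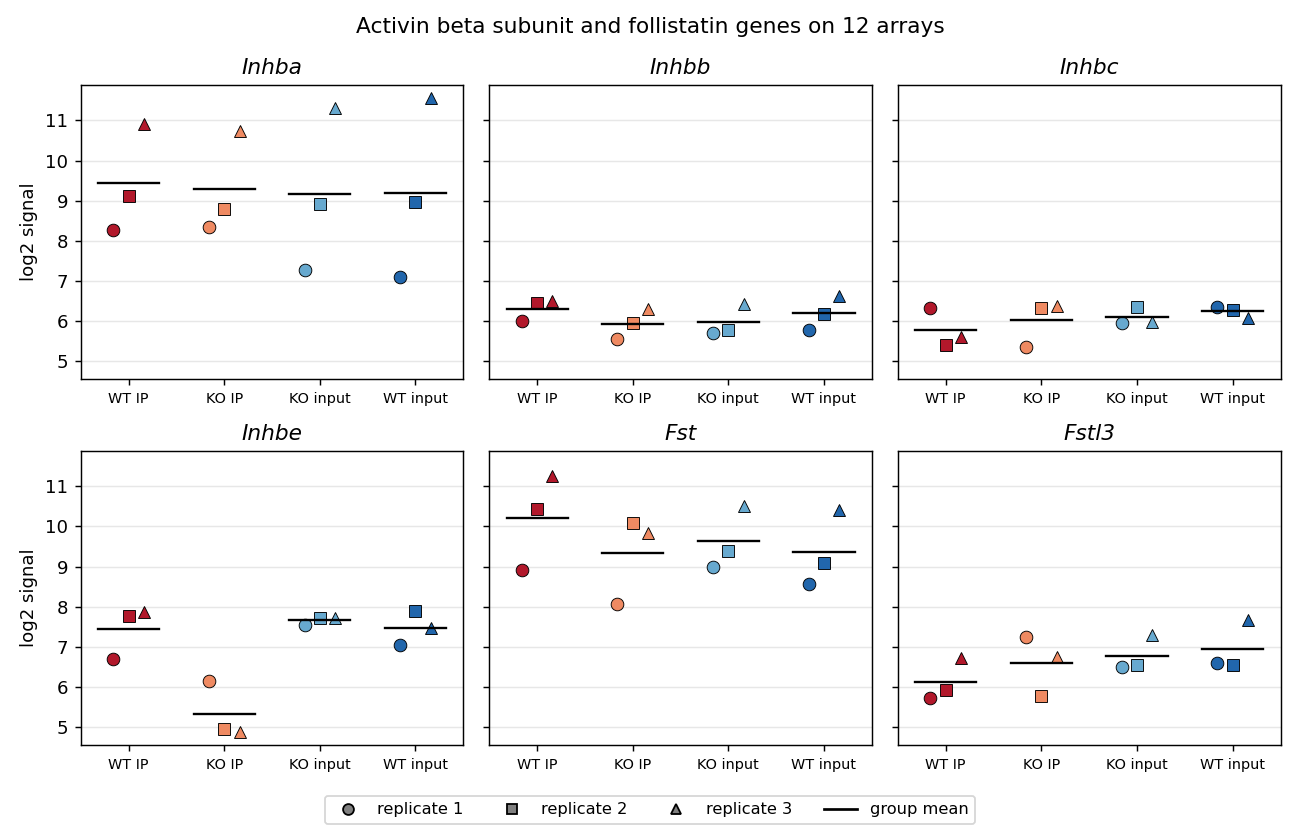
Log2 signal (y axis) of the 6 genes on each of the 12 arrays, by group (x axis; WT, wild type; KO, knockout). Points are arrays, shaped by replicate number, and bars are means of 3. Inhbe stands apart in knockout IP (6.16, 4.94 and 4.88), and Inhba spreads by replicate number in every group, from 7.09 to 11.55.

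In total RNA no difference between the genotypes was detectable for any member. Inhbe averaged 7.67 ± 0.11 in knockout input and 7.47 ± 0.42 in wild-type input (SD, n = 3 each), a difference of 0.20 (95% interval -0.72 to 1.11, adjusted p = 1.0 by limma over all genes tested). The input comparison did not enter the choice of Inhbe by itself, although its arrays are part of the specific enrichment. The differences of the other 5 members, knockout minus wild type, ran from -0.23 for Inhbb to 0.28 for Fst, each at an adjusted p of 1.0. Of the 6 members 0 were called, as were 0% of all genes tested by limma, with 5 genes (0.0527%) and 0 members at an unadjusted p under 0.05. The inputs of the genotypes overlapped for all 6 members and did not overlap for 1.62% of all genes tested. Fst was higher in knockout input in 3 of 3 numbers (0.42, 0.30 and 0.12), where 29.1% of genes lay in 1 direction throughout. These fits did not include the replicate number. Their intervals were widest for Inhba, from -2.68 to 2.61, and narrower for Inhbb (-0.95 to 0.50) and Inhbc (-0.90 to 0.61). With a replicate block, which removes the spread between numbers, the interval was -0.83 to 0.76 for Inhba and -0.43 to 0.98 for Fst.

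Inhbc lies next to Inhbe in the genome. On mouse chromosome 10 of the RefSeq table (GRCm38.p6) 0 genes start between them. Its values did not follow those of Inhbe. Inhbc signal was 6.32, 5.40 and 5.61 in wild-type IP, 5.36, 6.33 and 6.37 in knockout IP, 5.95, 6.36 and 5.98 in knockout input and 6.36, 6.27 and 6.08 in wild-type input. All 4 groups overlapped. The wild-type minus knockout difference between the IPs was -0.24 (95% interval -0.99 to 0.51, adjusted p = 1.0), with 0.96, -0.93 and -0.76 within numbers. Specific enrichment of Inhbc was -0.38 (95% interval -1.45 to 0.69, adjusted p = 1.0), and the levels of wild-type IP and wild-type input differed by -0.46 (adjusted p = 0.668, lower in 3 of 3 preparations; 52% of genes tested lay in 1 direction in all 3). Its mean over the 12 arrays, 6.03, was 0.46 above the filter, so this probe set stood low among the genes tested.

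Inhba, the subunit of activin A, did not separate any groups and varied instead between replicate numbers. Its signal was 8.27, 9.12 and 10.92 in wild-type IP, 8.35, 8.79 and 10.74 in knockout IP, 7.26, 8.92 and 11.32 in knockout input and 7.09, 8.96 and 11.55 in wild-type input. In all 4 groups replicate 1 was lowest and replicate 3 highest. Averaged over the genotypes, the inputs of replicates 1, 2 and 3 stood at 7.17, 8.94 and 11.44, a span of 4.26 (19.2-fold). Only 23 of the 9496 genes tested (0.242%), Inhba among them, had an input span as wide, and the median span was 0.75. In the IPs the span of Inhba was smaller, at 2.52.

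Within a replicate number the groups lay close together. Wild-type IP minus knockout IP was -0.09, 0.33 and 0.18, and knockout input minus wild-type input was 0.17, -0.05 and -0.23. The IP minus input difference of Inhba was 1.18, 0.16 and -0.64 in wild type. The knockout had 1.10, -0.13 and -0.58, so in each genotype the precipitate was above its input in replicate 1 and below it in replicate 3. Averaged over numbers these became 0.23 in wild type (adjusted p = 0.972) and 0.13 in knockout (adjusted p = 0.983). Specific enrichment was 0.11 (95% interval -3.63 to 3.85, adjusted p = 1.0). With the replicate block, which removes the spread between numbers, the interval was -1.17 to 1.38 (adjusted p = 1.0).

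Fst, which binds activin with high affinity and blocks its receptors' access, shared part of this pattern. Fst signal was 8.91, 10.44 and 11.25 in wild-type IP, against 8.07, 10.08 and 9.83 in knockout IP. It was 8.98, 9.40 and 10.52 in knockout input, against 8.56, 9.10 and 10.40 in wild-type input. Replicate 1 was lowest in all 4 groups and replicate 3 highest in 3 of them, and the input span was 1.69 (8.84% of genes tested had one as wide). Across the 12 arrays Fst and Inhba had a Pearson r of 0.777, Inhbb and Fst 0.851, and Inhba and Inhbb 0.837. These arrays share replicate numbers and inputs, so the 12 points are not independent. Inhbe had r of 0.0601 with Inhba and 0.191 with Fst.

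Fst differed by 0.87 between wild-type IP and knockout IP (95% interval -0.69 to 2.43, adjusted p = 1.0), with 0.84, 0.35 and 1.42 within numbers. All 3 values lay in 1 direction, as in 34.2% of genes tested. Wild-type IP minus wild-type input was 0.84 (adjusted p = 0.710), positive in 3 of 3 preparations, and in knockout it was -0.30 (adjusted p = 0.914), positive in 1 of 3. Specific enrichment of Fst was 1.15 (95% interval -1.06 to 3.36, adjusted p = 1.0), with 1.26, 0.65 and 1.54 within numbers (35.1% of genes lay in 1 direction), and did not pass. With the replicate block the interval was 0.08 to 2.22, and the adjusted p by limma, 0.737, did not pass either.

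**Figure D2:**
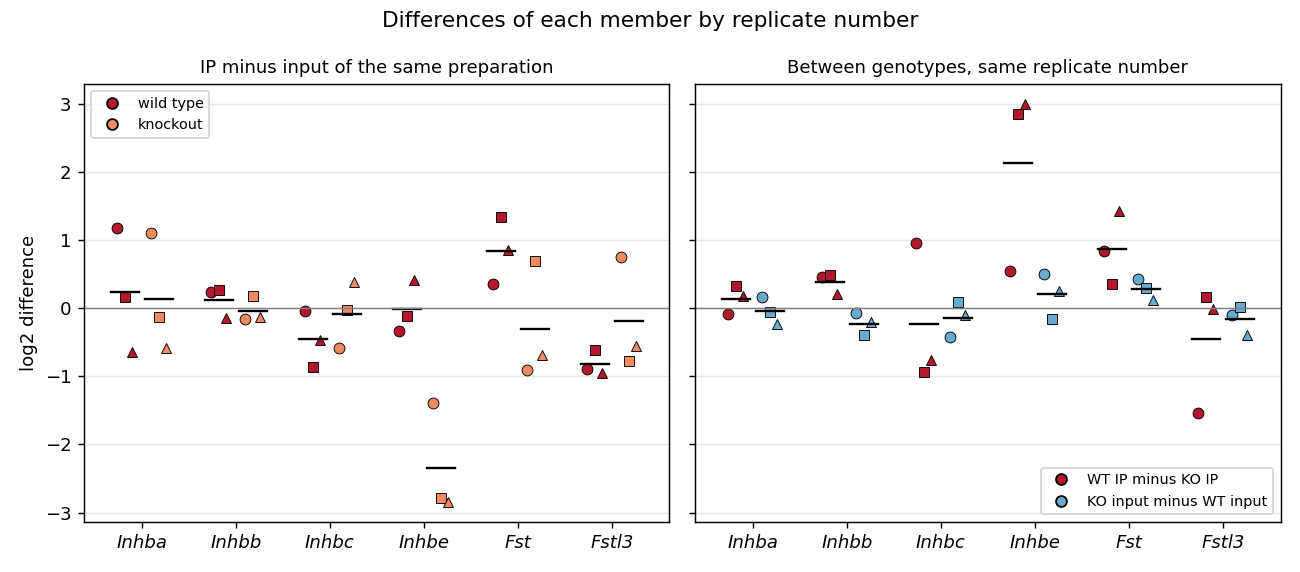
Log2 differences (y axis) of each gene (x axis) within replicate numbers (point shapes as in the plot of signal by array: circle 1, square 2, triangle 3), with the mean of 3 as a bar. Left, IP minus input in wild type and in knockout. Right, wild-type IP minus knockout IP and knockout input minus wild-type input. Inhbe lies near 0 for wild-type IP minus input and at -1.39, -2.79 and -2.84 for knockout.

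Inhbb, the subunit of activin B, stood low among the genes tested, with values between 5.54 and 6.63. Its mean over the 12 arrays, 6.10, was 0.53 above the filter. Its group means were 6.31 ± 0.27 in wild-type IP, 5.93 ± 0.37 in knockout IP, 5.97 ± 0.39 in knockout input and 6.19 ± 0.43 in wild-type input (SD, n = 3 each), and all groups overlapped. Replicate 1 was lowest and replicate 3 highest in all 4 groups, as for Inhba, with an input span of 0.78, close to the median of all genes tested. The wild-type minus knockout difference was 0.39 between the IPs (adjusted p = 1.0), and specific enrichment was 0.16 (95% interval -0.87 to 1.18, adjusted p = 1.0).

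Fstl3, a secreted relative of follistatin that also binds activins, had values of 5.72, 5.93 and 6.73 in wild-type IP, 7.25, 5.77 and 6.74 in knockout IP, 6.50, 6.55 and 7.29 in knockout input and 6.60, 6.54 and 7.68 in wild-type input. Wild-type IP minus wild-type input was -0.82 (95% interval -1.82 to 0.19, adjusted p = 0.571), with -0.89, -0.62 and -0.95 within preparations. With the replicate block the interval was -1.49 to -0.14, and the adjusted p by limma, 0.12, did not pass either. In knockout the difference was -0.19 (adjusted p = 0.914), with 0.75, -0.78 and -0.55. The difference between the IPs, -0.46 (adjusted p = 1.0), rested on replicate 1 (-1.54) and was 0.07 without that number. Specific enrichment was -0.62 (95% interval -2.05 to 0.80, adjusted p = 1.0).

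No member was called in any of the 5 comparisons by limma without the replicate block at an adjusted p under 0.05. The share of all genes tested that was called was 0.105% for wild-type IP against wild-type input, 0% for knockout IP against knockout input, 0.253% for wild-type IP against knockout IP and 0.0105% for specific enrichment. At an unadjusted p under 0.05, 0 of the 5 members other than Inhbe were found in any comparison, while 10.6%, 11%, 5.39% and 1.98% of all genes were in these 4. The median over the 6 members was 0.05 for wild-type IP against input (all genes tested -0.11), -0.14 for knockout IP against input (-0.21), 0.26 between the IPs (0.04) and 0.13 for specific enrichment (0.05). With the pairing of arrays taken into account as a replicate block, 1 of 6 members, Inhbe, was called as lower in knockout IP than in its input (5.28% of all genes tested were called lower) and as higher in wild-type IP than in knockout IP (2.33% called higher). Nothing is read from these calls, since Inhbe was chosen through the specific enrichment, which is made from the same IP arrays. With the block 0 members were called in wild-type IP against its input (7.02% of all genes, 2.41% higher and 4.61% lower), in the inputs, or in specific enrichment (0.0211% of all genes), and 2.45% of all genes were called between the IPs in either direction. At an unadjusted p under 0.05 the block found Fst and Fstl3 in wild-type IP against its input (27.8% of all genes), Fst between the IPs (14.4%) and Fst in specific enrichment (6.16%). It found no member other than Inhbe in knockout IP against its input (28%) or between the inputs (0.558%). The adjusted p of Fst with the block was 0.142 in wild-type IP against its input, 0.229 between the IPs (95% interval 0.17 to 1.57) and 0.737 in specific enrichment, and that of Fstl3 was 0.12.

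Some markers of cells other than hepatocytes also spread by replicate number, the stellate, cholangiocyte and endothelial lists being highest in replicate 3 and the macrophage and other blood lists in replicate 1. In bulk RNA, fewer cells of a type and less RNA per cell cannot be told apart. Of 8 stellate cell markers, 7 were highest in the replicate 3 inputs, where 33.5% of all genes tested peaked. The mean signal of the 8 markers was 5.24, 5.42 and 6.46 in the inputs of replicates 1, 2 and 3. Most of this rested on the pair with the widest span: Col3a1, a fibrillar collagen, stood at 5.09, 5.30 and 9.66 and Dcn, the proteoglycan decorin, at 6.36, 7.42 and 9.60. Des (desmin) stood at 5.84, 5.76 and 5.88, and Reln (reelin) was lowest in replicate 3, at 6.62, 7.80 and 6.24. Of the 8 markers 3 were lowest in replicate 1, as Inhba was. Lrat, Col1a1 and Pdgfrb had means below the filter. The 4 groups overlapped: the mean of the stellate markers ran from 5.55 to 6.27 in wild-type IP, 5.50 to 6.41 in knockout IP, 5.14 to 6.54 in knockout input and 5.33 to 6.37 in wild-type input. The part of these markers in the spread of Inhba was not tested.

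Of 4 cholangiocyte markers on the array 3 peaked in the replicate 3 inputs, with means of 5.39, 5.75 and 6.26, as did 4 of 7 endothelial markers, with 5.21, 5.60 and 5.82. In knockout and wild-type inputs alike, the mean of the 7 hepatocyte markers on the array was bright, at 12.29, 12.88 and 11.91 in replicates 1 to 3. The members of this list differed in direction, with 1 of 7 highest in replicate 3 and 2 of 7 lowest in replicate 1. Tat, a glucocorticoid-induced enzyme of tyrosine breakdown, stood at 7.54, 8.57 and 5.31 and Cyp2e1, a cytochrome P450, at 10.44, 13.06 and 9.10, both lowest in replicate 3. Fgb, a fibrinogen chain, was highest in replicate 3 (13.41, 12.94 and 14.18), and Serpina1a, an alpha-1 antitrypsin gene, was lowest in replicate 1 (12.21, 12.98 and 12.56). Albumin (14.88, 15.02 and 14.72), Apoa1 (13.88, 14.07 and 13.89) and Ttr (13.64, 13.54 and 13.61) spanned less. Of 7 Kupffer cell and macrophage markers 2 reached the filter and 2 peaked in the replicate 3 inputs, and the list averaged 5.72, 5.42 and 5.57. Of 4 markers of other blood cells on the array 1 reached it and 1 peaked in replicate 3 (list means 4.45, 4.23 and 4.37).

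**Figure D3:**
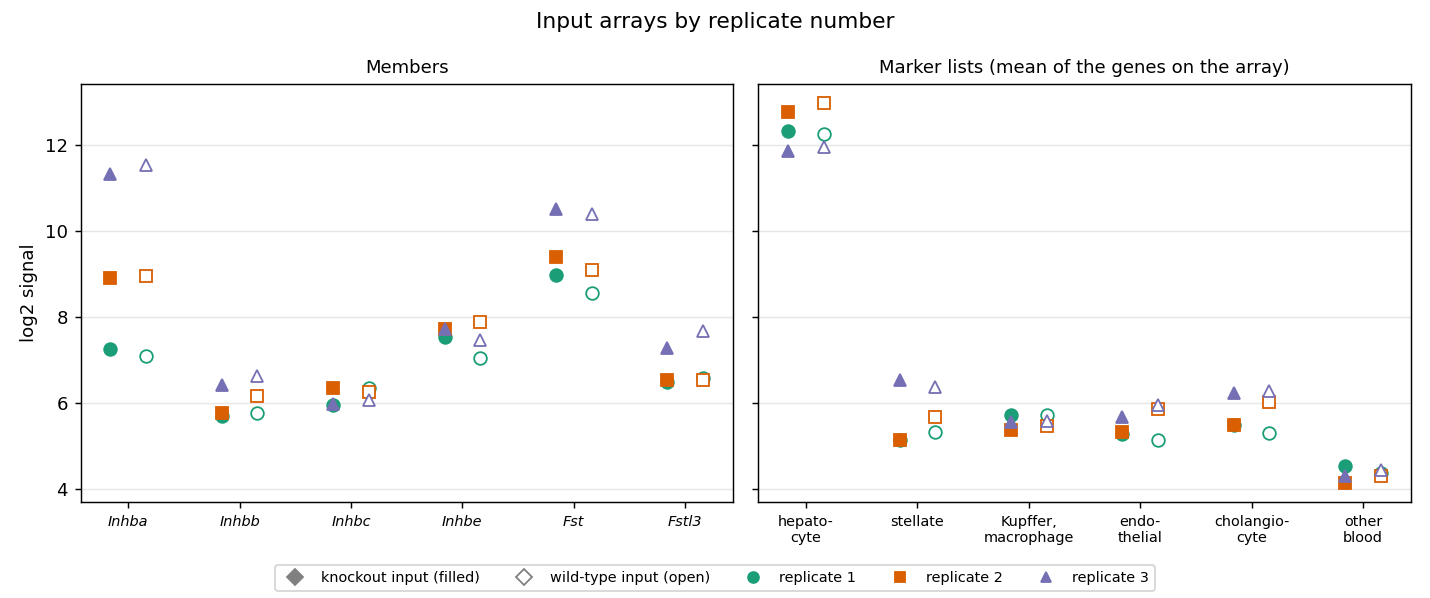
Log2 signal (y axis) on the input arrays, coloured and shaped by replicate number, with knockout filled at the left and wild type open at the right of each pair. Left, the 6 genes. Right, the mean of each marker list. Inhba spans 4.26 between replicates while the 2 genotypes of a number nearly coincide, and the stellate markers are highest in replicate 3.

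The genes most like each member were found by Pearson correlation over the 12 arrays among all genes tested. For Inhbe they were Lpin3 (r = 0.932), Prr3 (0.905), Cry2 (0.904), Lonrf1 (0.886) and Enkd1 (0.878). Lpin3, which encodes a phosphatidate phosphatase of the lipin family, averaged 6.36 in wild-type IP, 5.11 in knockout IP, 6.74 in knockout input and 6.87 in wild-type input. Cry2, a repressor of the circadian clock, averaged 7.92 in wild-type IP, 7.21 in knockout IP, 7.79 in knockout input and 7.70 in wild-type input. All 5 had their lowest group mean in knockout IP. They were picked for following Inhbe, which is low there, so this comes with the choice and is no separate result. The 12 arrays share preparations and replicate numbers, and the closeness is a description.

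Other genes were closest to the other members. Inhba was closest to Iqgap1 (r = 0.982), Prrc2c, Peak1, Dnajc1 and Kdelr2 (0.968), and Fst to Chst13 (0.965), Tapt1, Rbl1, Tmem18 and Myadm (0.954). Inhbb was closest to Frmd6 (0.956), Foxp1, Paxbp1, Slc39a14 and Msantd2 (0.93), and Fstl3 to Castor1 (0.95), Nfkbie, Slc15a4, Smg6 and Cnpy3 (0.897). Inhbc had the loosest matches, Snrnp25 (0.878), Ncoa5, Cdpf1, Wrap53 and Gatb (0.779). None of these lists held another member.

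Of the rest of the pathway, 0 ligands and receptors were called by limma without the replicate block, and 1 receptor list member, Bambi, was called with it. Of 14 other TGF-beta family ligands 4 were tested, with a median specific enrichment of 0.20 (all genes tested 0.05). Bmp4, a bone morphogenetic protein, had 1.10, Tgfb2 0.89 and Tgfb1 -0.85, each at an adjusted p of 1.0. Of 18 receptors and co-receptors 10 were tested, 7 of them positive, with a median of 0.23. Bambi, a pseudoreceptor that dampens TGF-beta family signals, had 1.33, the type II BMP receptor gene Bmpr2 0.66 and the activin receptor gene Acvr2b -0.52. Bambi averaged 6.98 in wild-type IP, 5.71 in knockout IP, 5.85 in knockout input and 5.79 in wild-type input. With the replicate block it was called higher in the wild-type IP, both against its own input (1.20, adjusted p = 0.0258; 0.463 without the block; 2.41% of all genes called higher) and against knockout IP (1.27, adjusted p = 0.0219; 0.825 without it; 2.33% called higher).

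Among the transducers, 12 of 17 SMADs and their regulators were tested, 8 of them positive in specific enrichment, with a median of 0.31 and 0 called. Tgif1, a corepressor that binds SMAD2, had 1.65, the inhibitory Smad7 1.11 and Pmepa1 0.52. Smad2, the SMAD that activin receptors phosphorylate, was named after its values were seen. It averaged 8.00 in knockout IP and 9.09 in knockout input. With the block only, it was called lower in that IP (adjusted p = 0.0399, against 0.420 without it), as were 5.28% of all genes tested. Of 15 other extracellular antagonists 5 were tested, with a median of -0.07. Dand5 had 0.86, Twsg1 -0.21 and Nbl1 0.19. Wfikkn1, also named after its values were seen, was called higher in knockout IP than in its input with the block only. Its difference was 1.08 (adjusted p = 0.0479, against 0.355 without the block), and 0.727% of all genes tested were called higher. Of 5 proprotein convertases, enzymes that cleave TGF-beta family precursors, 4 were tested, with a median of -0.08. Pcsk6 had -0.36, Pcsk4 0.34 and Furin -0.19.

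Genes that respond to SMADs lay on one side between the precipitates. Like the other pathway lists, this list was chosen with earlier results of these data known, so its counts and p-values are descriptions. The share of all genes tested with a positive difference is not given here. All 11 tested members of this list of 14 had a higher mean in wild-type IP than in knockout IP, with a median of 1.32 (all genes tested 0.04), and 10 of 11 had a positive specific enrichment, with a median of 1.19 (0.05). By limma without the replicate block 0 were called in any comparison. The largest specific enrichments were those of Id1 (2.19), Id2 (2.16) and Id3 (2.15), which encode inhibitors of basic helix-loop-helix factors and respond mainly to the BMP branch. Id2 averaged 10.70 in wild-type IP, 8.01 in knockout IP, 8.67 in knockout input and 9.20 in wild-type input. With the replicate block 3 of the 11, Ccn2, Id2 and Id3, were called higher in wild-type IP against its input, where 2.41% of all genes were. With the block 5 of the 11 were called as higher in wild-type IP than in knockout IP (2.33% of all genes called higher): Id2 (2.69, adjusted p = 0.00157), Junb (1.61, 0.00553), Ccn2 (1.32, 0.00792), Id1 (2.49, 0.0127) and Id3 (2.04, 0.0308). Their adjusted p without the block ran from 0.157 to 0.894. The block called 0 of the 11 in knockout IP against its input, between the inputs and in specific enrichment, where its adjusted p was 0.252 for Id1, 0.207 for Id2 and 0.212 for Id3. Of the 11 genes 2 had a higher mean in knockout input than in wild-type input and 9 a lower one, with a median of -0.14. The list shares Smad7, Skil and Pmepa1 with the SMADs and their regulators among genes tested, and several of its members, Junb and Ccn2 among them, are also immediate early genes.

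**Figure D4:**
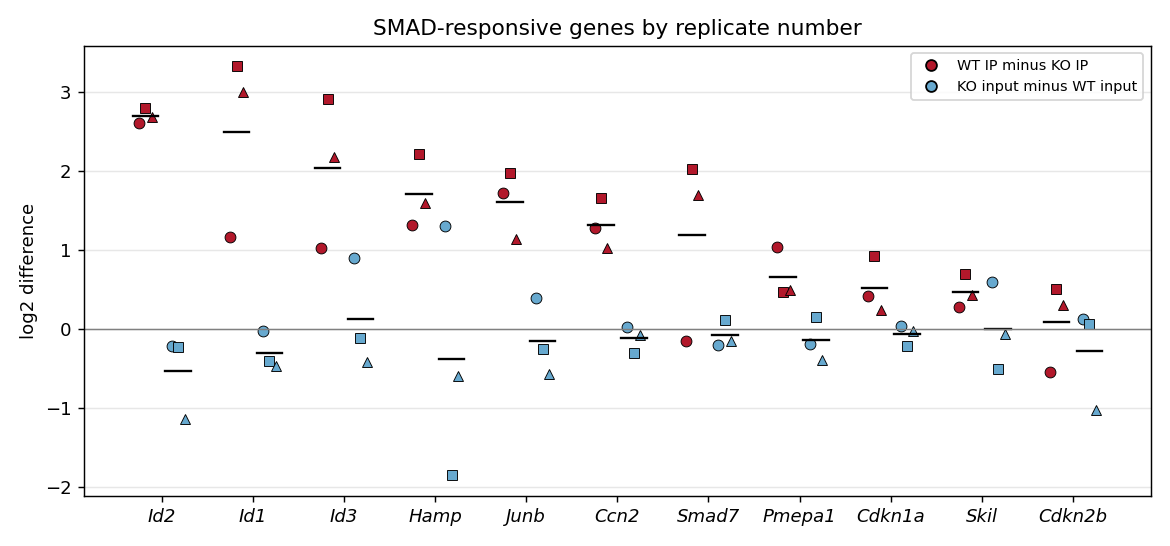
Log2 differences (y axis) of the 11 tested SMAD-responsive genes (x axis), ordered by the mean difference between the IPs, with 1 point per replicate number (circle 1, square 2, triangle 3) and the mean of 3 as a bar. Wild-type IP minus knockout IP is above 0 on average for all 11. Knockout input minus wild-type input is below 0 on average for 9 and above it for 2, with a median of -0.14.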

How the data were processed

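Per the labels, RNA was labelled by the standard Affymetrix protocol and hybridised to 1 array per sample. The authors deposited 1 log2 value per probe set and array, as the range shows; the sources used here do not give background correction, normalization or summarisation. Gene names came from the platform annotation (15780 of 16539 probe sets with 1 symbol, 0 with several, 64 controls, 695 others unnamed here).

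Genes with a mean over the 12 arrays at or above the 40th percentile (5.57) were tested: 9496. Group means were fitted with limma 3.58.1 (R 4.3.3) to all 12 arrays (8 residual degrees of freedom, empirical Bayes, two-sided), and genes were called where the adjusted p (Benjamini-Hochberg, all genes tested) was under 0.05. The fit was tested on simulated data with independent arrays. These lacked the shared deviations of same-number arrays, so the test does not bear on them. Likeness was Pearson's r over 12 arrays. Figures used Python 3.11.15 and matplotlib 3.10.9.

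As deviations from group means, same-number arrays of different groups correlated at 0.453 to 0.936 (18 pairs) and those with different numbers at -0.711 to 0.0685. All 12 arrays were closest to their own number. The series text pairs each IP with its input; the sharing of numbers between genotypes comes from these values. The replicate block took the preparation (genotype and replicate number) for IP against input and specific enrichment (4 residual degrees of freedom). Between genotypes it took the number (6). Titles call the replicates biological; where animals were not separate, p-values measure only the spread between samples. The number of arrays limits precision.

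Members and lists were chosen with earlier results of these data known. Named are all members, Cnot6l, up to 3 genes per pathway list by absolute specific enrichment, and the 5 closest genes per member. Alternatives were quantile normalization, other filters, the block, only the compared arrays, a variance trend and left-out arrays.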

Additional observations from a re-analysis of the deposited data

Results flagged for a closer look

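Fst was flagged because all 3 same-number differences, wild type minus knockout, were positive in the IPs and negative in the inputs. Of all genes tested, 34.2% lay in 1 direction throughout between the IPs and 29.1% between the inputs. The share with opposite directions in both is not given here. Their means differed by 1.15, which is its specific enrichment, with an adjusted p of 1.0 by limma. Tgfb1 showed the opposite arrangement, with a difference of -0.85 and an adjusted p of 1.0. Id1 and Id2 had IP minus input differences that were positive in all 3 wild-type preparations and negative in all 3 knockout preparations. Of all genes tested, 52% lay in 1 direction throughout in wild type and 48.1% in knockout. The differences between the genotypes were 2.19 for Id1 and 2.16 for Id2, each at an adjusted p of 1.0 by limma.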

How the results depend on the processing

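The 30 member differences had 604 alternative values. Among those of tested differences 43 changed sign, all of differences that had not passed; Inhbe in comparisons with an IP had no test and was set against its spread only, and ran from -0.23 to 0.36 in wild-type IP against input with arrays left out. Members called became 1 (Inhbe) for knockout IP against its input with no filter and with the replicate block, and 1 (Inhbe) for wild-type IP against knockout IP with the block. Nothing is read from these calls, since Inhbe was chosen through a value made from the same IP arrays. With arrays left out the counts of members ran from 0 to 0. Leaving out all 4 arrays of a number was chosen after seeing the data. The block changed no other call of a member. Genes called in all became, with the block, 667 (from 10) for wild-type IP against input, 570 (from 0) for knockout IP against input, 233 (from 24) between the IPs and 2 (from 1) for specific enrichment. Quantile normalization gave 16 for the first, no filter gave 52 for the second, and fits on the compared arrays alone gave 1 for the first and 0 between the IPs. With arrays left out these counts ran from 0 to 14, 0 to 2, 0 to 16 and 0 to 4. The cause of these shifts was not tested.

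Inhba in specific enrichment was -0.02 after quantile normalization. With arrays left out, Inhba ran from -0.82 to 1.41 in wild-type IP against input, -0.83 to 1.21 in knockout IP against input, -0.60 to 0.87 between the IPs, -1.12 to 1.14 between the inputs and -0.97 to 1.28 in specific enrichment. Inhbb ran from -0.09 to 0.34 and -0.22 to 0.19 in the IP against input comparisons (wild type, then knockout) and -0.07 to 0.38 in specific enrichment. Inhbc ran from -0.31 to 0.25 in knockout IP against input and -0.84 to 0.10 between the IPs. Fst ran from -0.80 to 0.33 in knockout IP against input and -0.17 to 0.80 between the inputs. Fstl3 ran from -0.67 to 0.22 in knockout IP against input, -0.87 to 0.07 between the IPs and -0.42 to 0.21 between the inputs. Inhbe between the inputs ran from -0.02 to 0.41. Specific enrichment ran from -0.60 to 0.38 for Cnot6l, -0.59 to 0.10 for Twsg1 and -0.03 to 0.38 for Nbl1. That of Inhbe stayed between 1.86 and 2.97. With arrays left out, 10 to 11 SMAD-responsive genes had a positive difference between the IPs and 9 to 11 a positive specific enrichment. The lowest adjusted p of a member other than Inhbe was 0.120, for Fstl3 in wild-type IP against input with the block.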
